A study of Mus musculus with 6 samples.

Results

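The subject of this report is miR-126a, a miRNA of endothelial cells, measured through both of its mature arms, mmu-miR-126a-3p and mmu-miR-126a-5p. These are 2 of the 1978 known mature miRNAs in the deposited count table and were chosen by name. Small RNA was sequenced from c-kit+ cardiac progenitor cells, which are heart cells carrying the receptor tyrosine kinase c-kit, taken by trypsin and collagenase digestion and magnetic bead sorting from hearts of wild-type male C57BL/6 mice of 4 to 6 weeks. There were 3 control libraries (labelled 0 hours) and 3 libraries of cells kept under hypoxia for 12 hours, and the title of the series sets the question around miR-210-3p and hypoxia.

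Several points limit what the groups stand for. The treatment label reads hypoxia in all 6 samples, so groups follow the titles and times. The labels call the libraries biological replicates without naming separate animals or cultures. The p-values therefore cover only library-to-library spread, part of which may be technical. Neither the oxygen level nor the culture time of the controls is stated in the labels, and unless controls were cultured equally long, hypoxia and time in culture cannot be told apart. The extraction protocol names RNA of exosomes while the design text names RNA of the cells. Columns are headed by a digit and a letter; the digit 0 was read as the control and 1 as hypoxia, so each direction given here depends on it. The column letters A, B and C match no label.

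A miRNA hairpin is cut into 2 arms, 5p and 3p, and the arm loaded into an Argonaute protein guides it to mRNAs that pair with its seed. miR-126 lies in an intron of Egfl7, a gene for a secreted endothelial protein, and is best known in endothelial cells and in blood progenitors. Its 3p arm represses Spred1 and Pik3r2, which restrain signalling by the VEGF receptor, and also Vcam1, an adhesion molecule for leukocytes. The 5p arm, long treated as the discarded one, represses Dlk1 and with it promotes proliferation of endothelial cells.

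The sequences are shown to mark which stretch of the hairpin gives the dominant product, and how a second, antisense hairpin overlaps it. They come from RefSeq (GRCm38.p6), written 5′ to 3′. The RefSeq table was matched by 1 of the 2 miR-126a arms, mmu-miR-126a-3p. In the hairpin lines the capitals mark the mature sequences of that RefSeq table, and in the lines of mature sequences they mark the seed (bases 2 to 8).
miR-126a hairpin: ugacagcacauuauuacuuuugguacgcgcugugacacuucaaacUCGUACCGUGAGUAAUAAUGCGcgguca
mmu-miR-126a-3p: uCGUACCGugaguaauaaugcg
miR-126b hairpin: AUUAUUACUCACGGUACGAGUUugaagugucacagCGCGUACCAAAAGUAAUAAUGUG
mmu-miR-126b-5p: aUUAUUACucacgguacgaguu
mmu-miR-126b-3p: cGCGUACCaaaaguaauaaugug

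The miR-126a hairpin of 73 bases lies at chr2:26591357-26591429 on the plus strand. Its 3p sequence of 22 bases takes hairpin positions 46 to 67, at chr2:26591402-26591423. In GENCODE M21, on the same build, Egfl7 spans chr2:26580014-26593120 on the plus strand, and 9 of its 19 transcripts cover the hairpin. The hairpin is intronic in 8 of these, 7 of them of the protein-coding type, and exonic only in the retained-intron transcript Egfl7-206. In transcripts such as Egfl7-201 it sits in intron 7 of a 10-exon model (chr2:26591064-26591663). Among 1679 mature mouse miRNAs in the RefSeq table, 0 others carried the seed CGUACCG of mmu-miR-126a-3p.

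The minus strand of the same place holds the hairpin of miR-126b, at chr2:26591363-26591420. All 58 bases of it are the reverse complement of part of the miR-126a hairpin. mmu-miR-126b-3p had 1, 2 and 0 counts in the controls, in the order of the letters, and 6, 0 and 3 under hypoxia. mmu-miR-126b-5p had 3 counts in hypoxia C and 0 in the other 5 libraries, where a count of 0 allows up to 0.244 CPM (counts per 1e+06 of the total; 3 counts in the shallowest library). Counts of the antisense hairpin thus came to 12 and 3 over all 6 libraries, beside at least 2783449 in each library for mmu-miR-126a-3p. Whether the counting used strand is not stated in the labels. In same-sense comparison mmu-miR-126b-3p shares a run of at most 10 bases with mmu-miR-126a-3p. No other row lay within 1% of either miR-126a arm in every library, so no row with matching counts points to reads counted for both.

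Known miRNAs totalled 12285970 to 16975987 counts per library, which gives each arm narrow counting intervals. Intervals of shares are exact Clopper-Pearson 95% intervals. They cover counting error alone and take each read as independent. PCR duplicates of a molecule are counted again, which makes the intervals too narrow even for that. No library was a copy of another (smallest chi-square per degree of freedom 85.9 over 15 pairs of libraries). Same-lettered control and hypoxia libraries deviated from their group means together, with correlations across miRNAs of 0.61 (letter A), 0.50 (B) and 0.35 (C), so values are also given within letters. This pairing comes from column names and values, not from the labels.

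mmu-miR-126a-3p was the second most abundant known miRNA in every library, below mmu-miR-21a-5p, which many cell types raise on injury or growth. It took 22.7% of known counts in control A (interval 22.6 to 22.7%), 21.7% in control B and 22.5% in control C. In hypoxia it took 20.3% in A (interval 20.3 to 20.3%), 21.9% in B and 23.6% in C. The hypoxia libraries lay on both sides of the controls, and hypoxia A was the lowest of all 6 while hypoxia C was the highest. The mean share was 22.3% ± 0.50 for the controls and 21.9% ± 1.63 under hypoxia (± SD with n = 3 each). The difference of -0.37 points did not exceed the spread between libraries (two-sided exact permutation p = 0.8 with 0.1 as the smallest it can give). With 1 library left out it ran from -1.18 points (without hypoxia C) to 0.448 (without hypoxia A), so its sign depended on hypoxia A. Within letters the difference was -2.36 in A, 0.215 in B and 1.04 in C.

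mmu-miR-126a-5p held about 1% of known counts and ranked from 14 to 19 among known miRNAs. Its share was 0.891% in control A (interval 0.886 to 0.897%), 0.638% in control B and 1.01% in control C. In hypoxia it was 1.11% in A, 0.923% in B and 1.19% in C. Control B was the lowest library and hypoxia C the highest, and the groups overlapped because hypoxia B lay below control C. The mean was 0.848% ± 0.192 in control and 1.07% ± 0.136 under hypoxia (± SD with n = 3 each), 1.27 times as high in hypoxia (two-sided exact permutation p = 0.2 with 0.1 as the smallest it can give). The difference of 0.226 points depended in part on control B, without which it was 0.121. Within letters the hypoxia library was higher by 0.222 points in A, 0.285 in B and 0.171 in C, a spread of 0.0566 (SD, 3 pairs). Such a shared direction was common in these data: 20.0% of all tested miRNAs had more CPM in hypoxia within all 3 letters, and the groups did not overlap for 12.9%.

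**Figure D1:**
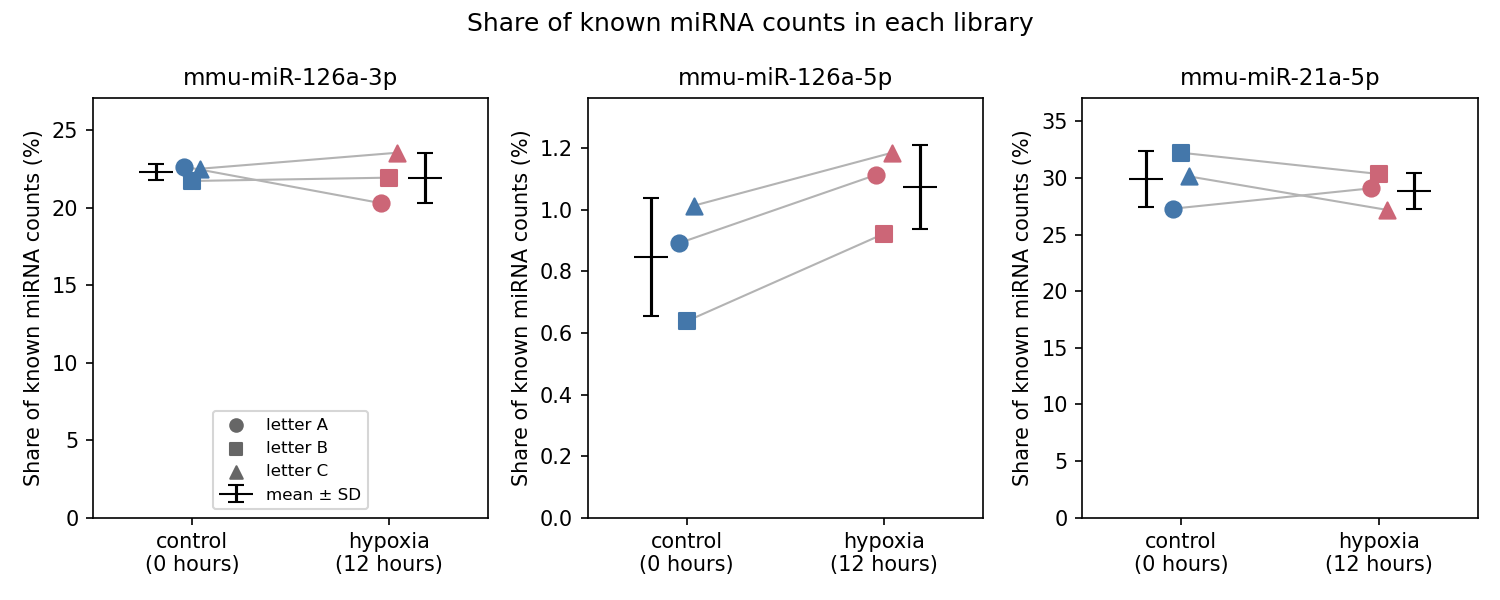
Share of known miRNA counts (%, linear axes from 0) of both miR-126a arms and of mmu-miR-21a-5p in each library; symbols give the letter, grey lines join same-lettered libraries, and bars show mean ± SD of 3 libraries. The 3p arm stayed between 20.3 and 23.6% with no common direction, while the 5p arm was higher in hypoxia within each letter but overlapped between groups (hypoxia B at 0.923% lay below control C at 1.01%).

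The quasi-likelihood test of edgeR, run on all 619 known miRNAs past the expression filter, called neither arm at an adjusted p of 0.05. For mmu-miR-126a-3p the level scaled by TMM factors was 228420 ± 12837 CPM for the controls and 214600 ± 21184 under hypoxia (n = 3 each, ± SD), or a log2 fold change of -0.09 (SE 0.12, 95% interval -0.35 to 0.17, edgeR adjusted p = 0.99). For mmu-miR-126a-5p it was 8593 ± 1356 CPM for the controls and 10459 ± 862 under hypoxia (n = 3 each, ± SD), or a log2 fold change of 0.28 (SE 0.16, 95% interval -0.08 to 0.65, edgeR adjusted p = 0.79). Both intervals include 0, and that of the 3p arm is the narrower one. Without control B the log2 fold change of the 5p arm was 0.14, and that of the 3p arm ran from -0.16 (without hypoxia B) to -0.01 (without hypoxia A). In the edgeR fit of all 6 libraries 0 of 619 miRNAs (0%) were called and 42 (6.79%) had an unadjusted p under 0.05. Of the alternatives, limma-voom called 0 of 619 and DESeq2, run without that filter, called 1 of 1322, which was neither arm.

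With the letter as a block the estimates stayed in place and their errors narrowed. The log2 fold change was -0.09 for mmu-miR-126a-3p (SE 0.08, edgeR adjusted p = 0.61) and 0.29 for mmu-miR-126a-5p (SE 0.09, edgeR adjusted p = 0.12), so neither arm was called. On the log2 CPM scale, the 5p arm differed by 0.24 in A, 0.43 in B and 0.21 in C, and the 3p arm by -0.24, -0.09 and 0.05. The unadjusted p of the 5p arm in the blocked fit was 0.0118. By that p the 5p arm was number 59 of 619. With the block 21.3% of tested miRNAs had an unadjusted p under 0.05, and 2.26% were called.

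**Figure D2:**
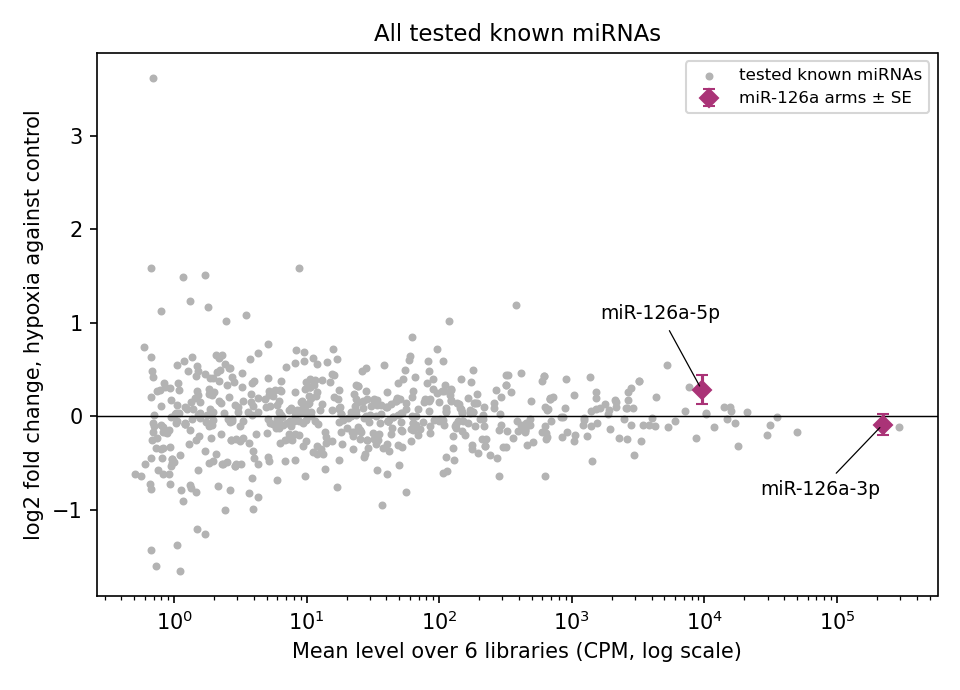
Log2 fold change of hypoxia against control plotted against the mean level over 6 libraries (CPM, log axis) for all 619 tested known miRNAs; each grey point is 1 miRNA and the diamonds are the miR-126a arms with their SE. The 3p arm lies at the far right near 0 (-0.09) and the 5p arm at 0.28, within the band of grey points.

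Because a ratio of 2 counts from 1 library needs no scaling between libraries, the arms were also set against each other. Per 100 counts of the 3p arm there were 3.93 counts of the 5p arm in control A, 2.94 in control B and 4.50 in control C. In hypoxia there were 5.49 in A, 4.2 in B and 5.03 in C. The 3p arm thus exceeded the 5p arm by 18.2 times (hypoxia A) to 34.1 times (control B), and the groups overlapped because hypoxia B lay below control C. The 5p arm made up 3.65% ± 0.738 of both arms in control and 4.68% ± 0.593 in hypoxia (± SD with n = 3 each; two-sided exact permutation p = 0.2 with 0.1 as the smallest it can give).

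**Figure D3:**
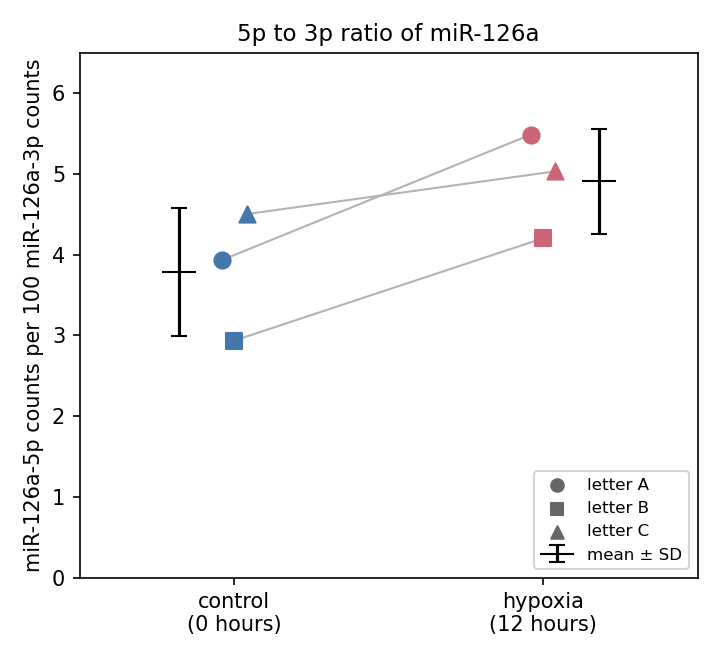
Counts of mmu-miR-126a-5p per 100 counts of mmu-miR-126a-3p (linear axis from 0) in each library; symbols give the letter, lines join same-lettered libraries and bars show mean ± SD of 3 libraries. Control libraries lie from 2.94 to 4.50 and hypoxia libraries from 4.2 to 5.49.

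On the log2 scale the 5p to 3p ratio was -4.74 ± 0.315 in control and -4.36 ± 0.196 under hypoxia (SD, n = 3 each), a change of 0.39 (SE 0.21, 95% interval -0.04 to 0.82) or 1.31-fold. Within letters it was higher in hypoxia by 0.48 in A, 0.52 in B and 0.16 in C. The change did not pass limma's moderated test over the 189 hairpins with both arms tested (limma adjusted p = 0.39), nor with the letter as a block (SE 0.19, limma adjusted p = 0.24). It rested in part on control B, without which it was 0.21, 1.81 times smaller. Over all hairpins limma called 3.70% without the block and 4.23% with it, and 20.6% had an unadjusted p under 0.05 with it (that of miR-126a was 0.048). The groups did not overlap for 18.5% of hairpins, and 19.0% had a higher ratio in hypoxia within all 3 letters, so the direction shared by the letters was not particular to miR-126a. A change of larger size, in either direction, was seen in 65 of the 189.

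The arm preference of miR-126a was stronger than that of the median hairpin, yet its scarcer arm was abundant. Of 189 hairpins 87 had more 3p than 5p counts, and 24 of them favoured the 3p arm more strongly than miR-126a did. The scarcer arm took 4.12% of the CPM of both miR-126a arms, against a median of 11.2% over all hairpins. At 9526 CPM it was nonetheless the most abundant scarcer arm of all 189, the next being miR-199a-5p at 1904 CPM and miR-335-3p at 1890 CPM (both named after their values were seen). The 3p row of miR-199a (3237.8 CPM) equals that of another hairpin, so which of its arms is scarcer is uncertain. Some other hairpins also had equal rows, so the 189 are not all separate. Among the 5 most abundant hairpins besides miR-126a the scarcer arm took a smaller part: 0.0131% for miR-21a, 0.0983% for let-7i, 0.388% for miR-143, 0.0303% for miR-99a and 1.53% for miR-22. Their log2 5p to 3p ratios changed by -0.78 (miR-21a, SE 0.26), -0.55 (let-7i, SE 0.22), 0.48 (miR-143, SE 0.22), -0.22 (miR-99a, SE 0.27) and -0.16 (miR-22, SE 0.22), and none of the 5 passed (limma adjusted p from 0.097 to 0.78). Of these 5, miR-21a passed with the letter block (limma adjusted p = 0.0101). The call was lost without pair B and without pair C, where the blocked fit called 0 hairpins each. Without pair A the blocked fit called 17 hairpins. Each fit without a pair rests on fewer libraries and has less power.

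**Figure D4:**
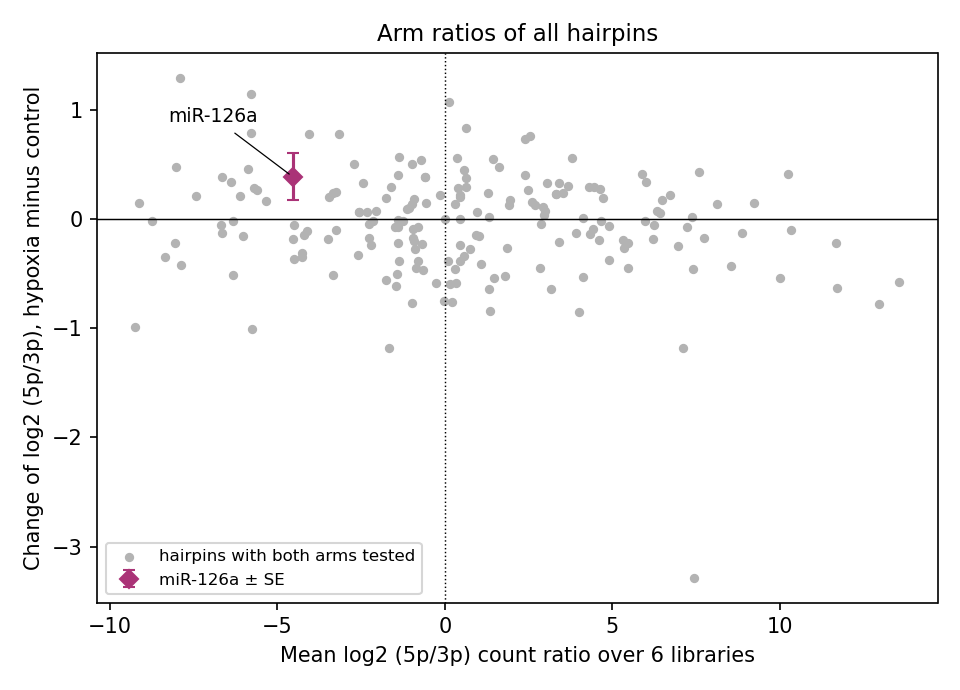
Change of the log2 5p to 3p count ratio (hypoxia minus control) plotted against its mean over 6 libraries for 189 hairpins with both arms tested; each grey point is 1 hairpin and the diamond is miR-126a with its SE. miR-126a, at a mean ratio of -4.55 and a change of 0.39, lies among hairpins that favour the 3p arm and inside the vertical range of the grey points.

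Shares of abundant miRNAs are tied, since mmu-miR-21a-5p and mmu-miR-126a-3p together took 49.4 to 54.0% of known counts. mmu-miR-21a-5p took 27.3, 32.2 and 30.1% in the controls, in the order of the letters, and 29.1, 30.4 and 27.2% under hypoxia. For each count of it there were 0.750 ± 0.0780 counts of mmu-miR-126a-3p in control and 0.762 ± 0.0910 under hypoxia (± SD with n = 3 each), which differed by less than the spread (two-sided exact permutation p = 0.9 with 0.1 as the smallest it can give). With mmu-miR-21a-5p left out of the total, mmu-miR-126a-3p took 31.8% ± 0.576 in control and 30.8% ± 1.96 in hypoxia, and mmu-miR-126a-5p 1.21% ± 0.256 and 1.51% ± 0.161 (SD, n = 3 each). Hypoxia A again had the lowest 3p share, 28.6%, and the other 5 libraries lay between 31.2 and 32.3%.

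In the order of mean CPM the 3p arm stood clear of its neighbours. mmu-miR-21a-5p was above it in all 6 libraries, and the next below, let-7i-5p, reached at most 57133 CPM against at least 190220 CPM for mmu-miR-126a-3p. The 5p arm, 17 in that order, was not separated from its neighbours. let-7a-5p, with a mean of 10245 CPM, exceeded it in 3 of 6 libraries, and miR-30d-5p, with 8680 CPM, in 1 of 6. The 3p arm was also steady, in that 6.62% of tested miRNAs had a smaller spread of log2 CPM within groups, against 21.3% for the 5p arm. All tested miRNAs entered this comparison, nearly all of them less abundant than the 3p arm. Spread was not compared among miRNAs of like level.

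Likeness was measured as the SD over the 6 libraries of the log2 count ratio to each arm, which needs no scaling, among 184 other miRNAs of at least 100 CPM. The closest to mmu-miR-126a-3p were let-7b-5p (SD 0.071), miR-34b-3p (0.089), let-7c-5p (0.097), miR-378a-3p (0.097) and miR-30e-3p (0.0998). The closest to mmu-miR-126a-5p were miR-374b-5p (0.060) and miR-374c-5p (0.060), then miR-361-5p (0.083), miR-16-5p (0.101) and miR-30b-5p (0.141). The 374b and 374c rows had almost equal levels (318.07 and 317.86 CPM), and their separate values are uncertain. The arms of the same hairpin were less alike, with an SD of 0.316: the 5p arm was only number 115 of 184 in likeness to the 3p arm, and the 3p arm number 66 in likeness to the 5p arm. The 5 closest to the 3p arm had log2 fold changes from -0.11 to -0.03, and the 5 closest to the 5p arm from 0.27 to 0.44. This nearness follows from the measure, which spans both groups and so picks rows with a fold change near that of the arm. It is therefore no separate result.

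Beside miR-126a, 34 miRNAs with described roles in endothelium or vessel growth were followed, and all 34 were tested. They split evenly: 17 were higher and 17 lower in hypoxia with a median log2 fold change of 0.03, and over all 619 tested miRNAs 317 were higher and 302 lower with a median of 0.01. edgeR called 0 of the 34 without the block, as it called 0 of all 619, and 4 of the 34 had an unadjusted p under 0.05 beside 6.79% of all tested. With the letter block 8 of the 34 did, beside 21.3%. The most abundant were let-7f-5p (log2 fold change 0.00, SE 0.15), miR-27b-3p (0.05, SE 0.14) and miR-24-3p (-0.12, SE 0.17), the last pair coming from clusters that modulate vessel sprouting. Those of smallest p were miR-210-3p, a target of the hypoxia-inducible factors (1.19, SE 0.25), miR-503-5p, which represses drivers of the cell cycle (1.02, SE 0.31), and miR-15a-5p, of the miR-15/16 family that restrains the cell cycle (0.72, SE 0.26), each with an edgeR adjusted p of 0.65. With the block 2 of the 34 were called, beside 2.26% of all tested, namely miR-210-3p (edgeR adjusted p = 0.024) and miR-503-5p (edgeR adjusted p = 0.0072). Both calls were lost without pair A and without pair C, where the blocked fit called 0 of all miRNAs each. Without pair B the blocked fit called 23 of all miRNAs. Each fit without a pair rests on fewer libraries and has less power. Together the 34 summed to 95791 to 118850 CPM in control and 95870 to 113520 CPM in hypoxia, less than mmu-miR-126a-3p alone.

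The label names c-kit+ progenitor cells, whose defining marker is a protein not measured here, so the cell type was looked at only through miRNAs taken as markers of other lineages. These lists are not separate from the endothelium-linked list, which also holds some of the fibroblast and smooth muscle and of the blood cell markers. The counts of higher members below stand beside 317 of all 619 tested miRNAs higher in hypoxia. The 8 fibroblast and smooth muscle markers summed to 26367 to 58088 CPM in control and 27006 to 51010 CPM in hypoxia, with 6 of 8 higher. Their mean sum was nonetheless lower in hypoxia, 37129 CPM against 38201 CPM in control. The 6 cardiomyocyte markers summed to 77.2 to 172 CPM and 104 to 176 CPM, and all 4 tested ones were higher, the scarcest at a mean of only 1.80 CPM. The 7 blood cell markers summed to 49.4 to 55.0 and 42.6 to 56.8 CPM (3 of 5 tested higher), and the 6 epithelial markers to 4.45 to 10.5 and 6.69 to 8.20 CPM (2 of 4 tested higher). mmu-miR-126a-3p thus had more CPM in every library than the markers of any of these lineages summed. These are sums of read counts of different miRNAs and give no shares of cells. None of these markers was called, with or without the block, beside 2.26% and 0% of all tested. Of the 7 blood cell markers, miR-144-3p was the lowest with 0 to 4 counts per library and the only one at 0 in any library, and miR-486a-5p was the highest with 293 to 505 counts (both named after their values were seen). Whether the share of endothelial or other cells differed between libraries was not tested, and in such bulk RNA fewer cells of a type and less of the miRNA per cell cannot be told apart. The extraction protocol names RNA of exosomes, so these levels and sums may not describe the cells themselves.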

How the data were processed

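The authors deposited raw read counts as whole numbers, per the file headers 1 column per library, for 1978 known and 838 predicted miRNAs; the latter entered only an alternative total. Per the submitters' processing notes, bcl2fastq 2.0, DESeq2 and mm10 were used, with no role given. Aligner, counter and miRNA release: not given in the sources used here.

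Counts were analysed in R 4.3.3. edgeR 4.0.16 (filterByExpr, TMM, quasi-likelihood test, Benjamini-Hochberg adjustment at 0.05) was fitted to all 6 libraries without covariates, over all 619 tested known miRNAs. CPM is the count per 1e+06 of the TMM-scaled total. Arm ratios, log2((5p + 0.5)/(3p + 0.5)), were tested with limma 3.58.1 (trend on the scarcer arm) over 189 hairpins paired by name. DESeq2 1.42.0, limma-voom, other scalings and filters, leaving out libraries and a letter block were alternatives. Both fits were tested on simulated data.

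Named miRNAs follow a written rule (both arms, miR-126b, miR-21a-5p, the 5 nearest in likeness to each arm, the neighbours in level, the 3 most abundant and 3 of smallest p of the endothelium-linked list, and the 5 most abundant other hairpins). The 4 names outside it are marked as chosen after their values were seen. The members and lists were chosen with earlier results of these data known.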

Additional observations from a re-analysis of the deposited data

How the results depend on the processing

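The log2 fold change of mmu-miR-126a-3p was below 0 in all 19 alternatives (-0.17 to -0.01) and that of mmu-miR-126a-5p above 0 in all 19 (0.14 to 0.38), and neither was called in any of them (adjusted p from 0.61 to 1.00 and from 0.12 to 1.00). The change of the arm ratio was above 0 in all 14 (0.21 to 0.52) and was not called (adjusted p from 0.24 to 0.86). Lowest values for the 5p arm and the ratio came without control B. The difference in the 5p share was above 0 in all 10, and that in the 3p share below 0 in 9 of 10.

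The number of known miRNAs called by edgeR, 0 of 619, became 4 of 1322 without the filter and 1 of 1322 with DESeq2. It was 14 of 619 with the letter as a replicate block and 36 of 1322 with DESeq2 and that block. Leaving out 1 library or 1 pair gave 0 to 23. The number of hairpins called for a changed arm ratio, 7, was 1 with no pseudocount and 1 with a pseudocount of 1, and leaving out 1 library or 1 pair gave 0 (without control B, hypoxia A, hypoxia C, pair B or pair C) to 18 (without control A). The median of the 34 endothelium-linked miRNAs was 0.0925 with library sizes only, a scaling that moved the median of all miRNAs by 0.066, and ran from -0.0423 to 0.0465 without 1 library. The causes of the other changes were not tested. DESeq2 with the block and the blocked ratio without a pair were added after the data were seen. With 3 libraries against 3 the exact permutation tests cannot pass 0.05. Counting error, with each read taken as independent, is far below the spread between libraries for both arms.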
